A study of Mus musculus with 15 samples.

Results

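The messages of the oocyte growth factors Gdf9, Bmp15, Bmp6 and Fgf8 and of the receptor Kit were followed through 15 libraries of mouse oocytes. The 5 genes were chosen by name from the 55401 gene identifiers that were counted, and all 5 passed the filter on low counts that left 21009 genes to test. Each library was made from 6 germinal vesicle oocytes of Kunming mice, for which the labels give no genotype beyond the strain. The series gives an age of 12 to 14 days, which the study's methods state for the mice whose follicles were cultured and do not state for the in vivo oocytes. The in vitro groups came from cultured preantral follicles, and oocytes were taken on day 10 without NT-4 (IVG) or with NT-4 at 100 ng/mL (IVG-NT), and on day 6 without it (IVG_d6) or with it (IVG-NT_d6). NT-4 is a neurotrophin that signals through the receptor TRKB. Oocytes grown in vivo (IVV) came from punctured antral follicles. Each group held 3 libraries, numbered 2, 3 and 4 in IVV and 1, 2 and 3 elsewhere. The study's methods trace the libraries of a group to separate experiments, on both days.

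An oocyte steers its follicle by secreting growth factors, and it depends in turn on signals from the granulosa cells around it. GDF9 and BMP15 are related factors of the TGF-beta family, made by the oocyte and able to pair with each other, that drive granulosa cells to divide and cumulus cells to expand. BMP6 belongs to the same family, FGF8 is a fibroblast growth factor that acts with BMP15 on the energy metabolism of cumulus cells, and KIT is the receptor on the oocyte surface for the KIT ligand of granulosa cells, passing its signal to PI3K, AKT and the transcription factor FOXO3.

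In GRCm38, the build of the mm10 alignment, Gdf9 (ENSMUSG00000018238) lies on chromosome 11 from 53431023 to 53437904 on the plus strand, with exons that cover 2031 bases. Bmp15 (ENSMUSG00000023279) lies on chromosome X from 6314107 to 6320721 on the minus strand, with 3060 exon bases. Bmp6 (ENSMUSG00000039004) lies on chromosome 13 from 38345107 to 38500302 on the plus strand, with 3900 exon bases. Of the 5 genes it alone shares exon bases with a neighbour, 224 bases with Txndc5 on the opposite strand, and the counting was not stated to use strand. Fgf8 (ENSMUSG00000025219) lies on chromosome 19 from 45736798 to 45742915 on the minus strand with 1350 exon bases, and Kit (ENSMUSG00000005672) on chromosome 5 from 75574916 to 75656722 on the plus strand with 8911 exon bases, so the shortest and the longest of the 5 transcript models are those of Fgf8 and Kit.

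Bmp15 and Kit were high and low in the same libraries (Pearson's r 0.97), and their promoters are shown for that reason. Within the kinds of library defined below r was 0.70, and shared control of these genes was not tested. The windows run from 250 bases before to 50 bases after the annotated start (RefSeq, GRCm38.p6), read 5′ to 3′ on the strand of the gene. Capitals mark TAATTA or TAATTG, the letters bound by homeobox factors such as NOBOX, and the E-box CANNTG bound by factors such as FIGLA. Both strands were searched, and the motifs do not overlap one another here. The Bmp15 window is chrX:6320675-6320974 (minus strand) and the Kit window is chr5:75574737-75575036 (plus strand).
Bmp15: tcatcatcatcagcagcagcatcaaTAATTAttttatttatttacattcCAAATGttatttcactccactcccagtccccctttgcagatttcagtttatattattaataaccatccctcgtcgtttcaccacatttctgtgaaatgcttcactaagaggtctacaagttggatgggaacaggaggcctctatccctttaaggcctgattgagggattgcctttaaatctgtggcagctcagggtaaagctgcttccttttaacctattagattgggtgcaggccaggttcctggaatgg
Kit: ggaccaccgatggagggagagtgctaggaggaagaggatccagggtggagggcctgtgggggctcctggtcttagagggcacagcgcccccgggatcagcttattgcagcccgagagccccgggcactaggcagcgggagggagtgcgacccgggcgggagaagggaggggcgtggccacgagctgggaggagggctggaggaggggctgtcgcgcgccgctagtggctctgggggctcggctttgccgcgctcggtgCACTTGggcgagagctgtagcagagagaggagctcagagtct
The Bmp15 window held TAATTA once, starting at base -225, and 1 E-box starting at base -201. TAATTA stood in 5.29% and TAATTG in 8.0% of 32851 promoters of the same length, and the Kit window held neither. Its 1 E-box started at base 9 after the start, and an E-box stood in 72.3% of promoters. The Bmp15 window was 41.7% G and C and the Kit window 69.0%. Of the 5 genes, 3 had an entry, and the Bmp6 window held 2 E-boxes and no TAATTA or TAATTG.

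Library totals ran from 5954262 to 55593251 counts. IVG-NT_d6 1 and 2 were the shallowest, with 5954262 and 7125348 counts and 13338 and 10991 genes detected, against 15483 to 22966 genes in the others. The rRNA gene CT010467.1 took 12.5% to 37.9% of the counts in 9 libraries (called rRNA-rich: IVV 3 and, of every cultured group, libraries 1 and 2) and 0.187% to 0.714% in the other 6 (rRNA-poor), split at a limit of 5% that was set with the shares known. The 15 oocyte markers on the list were counted in every group, with summed levels of 4681 to 7862 FPKM in rRNA-rich and 19224 to 23972 FPKM in rRNA-poor libraries. Granulosa cell markers, 15 genes, summed to between 13.9 and 140 FPKM, and their median per group was 89.9 in IVV, 127 in IVG, 64.4 in IVG-NT, 27.7 in IVG_d6 and 34.3 in IVG-NT_d6. Of these markers Amh reached at most 11 counts in any library, while Inha reached 5873, Gja1 4111 and Inhba 3653. Theca and stroma markers summed to at most 6.43 FPKM, macrophage markers to at most 12.2 and red blood cell markers to at most 56.3.

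Gdf9, the factor without which follicles stop at the primary stage, was the most abundant of the 5 per length in 10 of 15 libraries, with 792 to 3229 FPKM. In IVV 2, 3 and 4 it stood at 4575, 2602 and 4199 normalised CPM (counts relative to the library total, scaled by TMM), in IVG 1, 2 and 3 at 2434, 2530 and 5261, and in IVG-NT at 2325, 1844 and 3760. On day 6 it stood at 2845, 3813 and 4818 CPM in IVG_d6 and at 4904, 3720 and 4567 in IVG-NT_d6. Each value is a share of its library, so that less of one RNA and more of the others cannot be told apart. The lowest values lay in rRNA-rich libraries, and the highest was that of IVG 3, which is rRNA-poor. By mean log2 CPM the order was IVG-NT_d6, IVG_d6, IVV, IVG and IVG-NT, from 12.09 to 11.30, and each group overlapped the next.

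Bmp15, the X-linked partner of Gdf9, was the most abundant per length in the other 5 libraries, with 243 to 1786 FPKM. It stood at 911, 3310 and 942 CPM in IVV 2, 3 and 4, at 4614, 3634 and 720 in IVG, and at 4963, 4278 and 670 in IVG-NT. In IVG_d6 it stood at 5643, 6654 and 1133 CPM and in IVG-NT_d6 at 2392, 2291 and 657. Within every group the rRNA-rich libraries were high and the rRNA-poor ones low, so that no rRNA-rich library came down to the highest rRNA-poor one. By mean log2 CPM the groups ran IVG_d6, IVG-NT, IVG, IVG-NT_d6 and IVV, from 11.77 to 10.47, and neighbours overlapped.

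Bmp6, a bone morphogenetic protein made by oocytes and granulosa cells, was the steadiest of the 5 outside IVG-NT_d6. It stood at 107, 115 and 102 CPM in IVV, at 105, 104 and 108 in IVG, at 133, 120 and 109 in IVG-NT, and at 111, 135 and 127 in IVG_d6. In IVG-NT_d6 it stood at 45.2, 6.96 and 81.0 CPM, below every other library, although in FPKM the 25.3 of IVG-NT_d6 3 lay above the 24.5 of IVG 1. Behind these 3 values lay 250, 40 and 4968 counts, and the lowest was that of IVG-NT_d6 2, the library with the fewest genes detected. In FPKM the mean was 28.6 ± 2.70 (SD, n = 3) in IVV, 28.7 ± 5.12 in IVG, 28.8 ± 2.15 in IVG-NT, 31.9 ± 6.76 in IVG_d6 and 12.5 ± 12.0 in IVG-NT_d6. By mean log2 CPM the order was IVG_d6, IVG-NT, IVV, IVG and IVG-NT_d6, from 6.95 to 4.88, and of the neighbours in it IVG and IVG-NT_d6 alone did not overlap.

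Fgf8, the fibroblast growth factor, ran the other way from Bmp15. It stood at 108, 23.4 and 91.9 CPM in IVV, at 34.3, 47.5 and 144 in IVG, and at 38.2, 37.6 and 170 in IVG-NT. On day 6 it stood at 42.2, 61.4 and 137 CPM in IVG_d6 and at 22.6, 94.0 and 152 in IVG-NT_d6. The highest library of each in vitro group was the rRNA-poor one, and the group means in log2 CPM lay between 5.94 and 6.15. The 125 counts of IVG-NT_d6 1 were the fewest for this gene.

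Kit, the receptor, had the widest range of the 5 as a ratio of the highest to the lowest normalised CPM, from 59.4 to 1880. In FPKM it ran from 7.54 to 204 and Bmp6 from 1.44 to 39.7, a ratio no narrower than that of Kit. It stood at 67.7, 559 and 59.4 CPM in IVV 2, 3 and 4, at 1613, 1253 and 79.6 in IVG, and at 886, 1144 and 67.3 in IVG-NT. On day 6 it stood at 1880, 1596 and 115 CPM in IVG_d6 and at 543, 855 and 75.7 in IVG-NT_d6. Every rRNA-rich library lay above every rRNA-poor one. Per length it held rank 3 of the 5 in all 9 rRNA-rich libraries and last in all 6 rRNA-poor libraries, with medians of 112 and 9.42 FPKM. The order of the groups was IVG_d6, IVG, IVG-NT, IVG-NT_d6 and IVV, from 9.45 to 7.03 in mean log2 CPM, and neighbours overlapped.

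**Figure D1:**
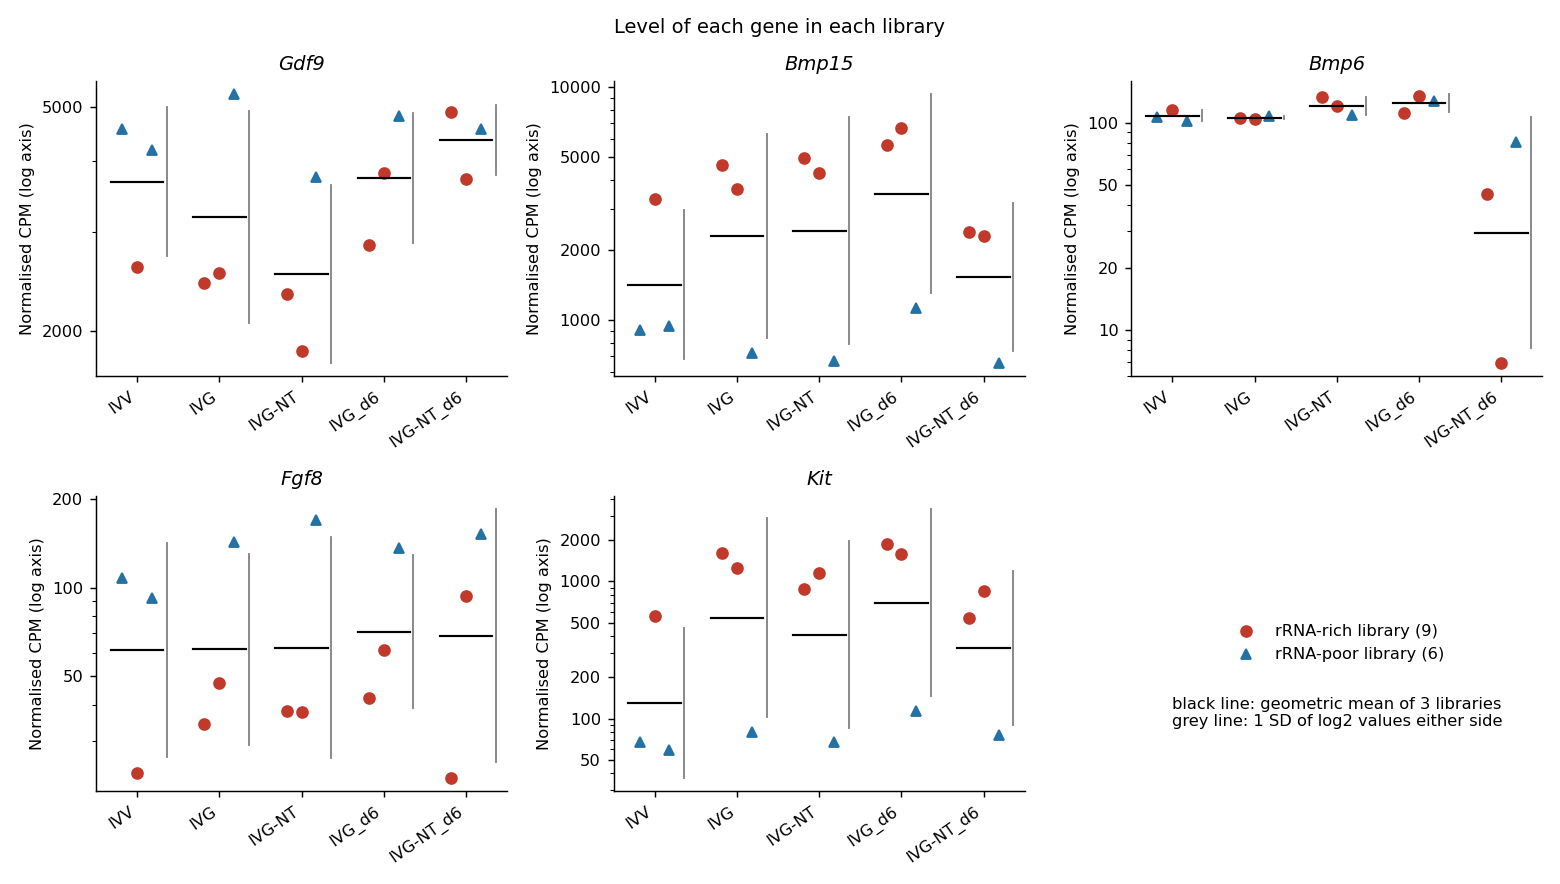
Normalised CPM on a log axis for each gene in the 15 libraries, by group, with the geometric mean of 3 libraries (black line) and 1 SD of the log2 values either side (grey line). Red circles are rRNA-rich and blue triangles rRNA-poor libraries: for Bmp15 and Kit every circle lies above every triangle, Fgf8 runs the other way, and Bmp6 is low in IVG-NT_d6.

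Of the 5 genes, 4 differed between the kinds of library at an adjusted p under 0.05, as did 23.7% of all genes tested. This comparison was added after the counts were seen, with the 5 groups as covariates in the quasi-likelihood fit. Kit was higher in rRNA-rich libraries by 3.66 on the log2 scale (SE 0.24, adjusted p = 6.7e-07 by edgeR's test) and Bmp15 by 2.27 (SE 0.18, adjusted p = 2.1e-06). Fgf8 was lower by a log2 fold change of -1.78 (SE 0.34, adjusted p = 0.0023), with an overlap through IVG-NT_d6 2 alone. Gdf9 differed by -0.67 (SE 0.16, adjusted p = 0.0071), within the fold that a call needs, and Bmp6 by -0.30 (SE 0.40, adjusted p = 0.62). So 3 of 5 were called at a log2 fold change beyond 1 and P under 0.05, where 35.1% of all genes tested were called. The rRNA-rich libraries did not overlap the others for 2 of 5 genes, against 13.2% of all genes. With labels exchanged within groups, 243 assignments, the exact two-sided p was 0.0041 for Kit, Bmp15 and Fgf8, the smallest these assignments can give, 0.0082 for Gdf9 and 0.61 for Bmp6 (0.0062, 0.0099 and 0.61 after Benjamini-Hochberg adjustment over 6 measures). The call of all 3 held without any 1 library.

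The difference between the kinds of library ran with transcript length. Over 15510 protein-coding genes its Spearman correlation with exon length was 0.47, a description across genes, which are not independent, and with the GC content of the transcript it was 0.0018. The median log2 fold change was -3.19 for the 558 genes under 1000 exon bases and 0.74 for the 4703 genes over 6000. Fgf8 (1350 bases), Gdf9 (2031) and Bmp6 (3900) lay inside the middle range of genes of their length, from the lower to the upper quartile. Bmp15 and Kit lay above it, since those quartiles were -1.60 and 0.63 at 3000 to 4000 bases and -0.30 and 1.72 over 6000. The part of length in these differences was not tested.

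**Figure D2:**
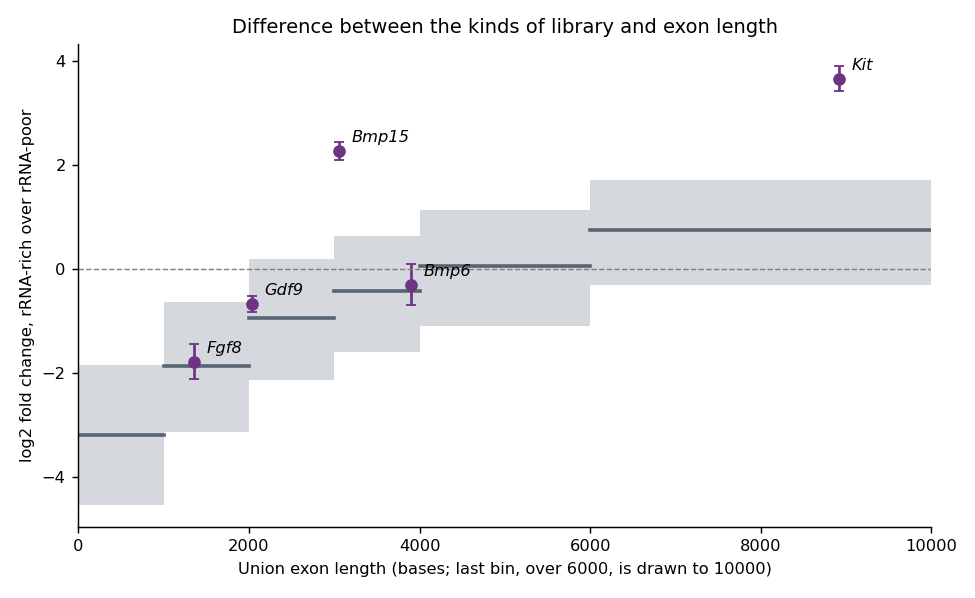
Log2 fold change of rRNA-rich over rRNA-poor libraries against union exon length in bases; points are the 5 genes with their SE, dark lines the median and grey boxes the quartiles of all protein-coding genes tested in 6 bins of length. Longer genes are higher in rRNA-rich libraries, and Bmp15 (2.27) and Kit (3.66) lie above the upper quartile of their bins.

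The balance of the 2 main oocyte factors followed the kind of library as well. GDF9 and BMP15 work as a pair, so their ratio within a library was taken from FPKM. Gdf9 exceeded Bmp15 by 7.56, 1.18 and 6.71 times in IVV 2, 3 and 4, and the ratio was 0.795, 1.05 and 11.0 in IVG and 0.706, 0.649 and 8.46 in IVG-NT. On day 6 it was 0.760, 0.863 and 6.41 in IVG_d6 and 3.09, 2.45 and 10.5 in IVG-NT_d6. It ranged from 6.41 to 11.0 in the 6 rRNA-poor libraries and from 0.649 to 3.09 in the 9 rRNA-rich ones. The mean log2 ratio was 1.97 ± 1.5 (SD, n = 3) in IVV, 1.07 ± 2.08 in IVG, 0.65 ± 2.10 in IVG-NT, 0.69 ± 1.73 in IVG_d6 and 2.10 ± 1.13 in IVG-NT_d6, and in none of the 8 comparisons of groups tested did it reach the smallest exact p of 0.1 that 3 libraries against 3 allow. Within groups the kinds differed by -2.95 on the log2 scale (rRNA-rich minus rRNA-poor, exact p = 0.0041, 243 assignments). Among rRNA-rich libraries the values of IVG-NT_d6 1 and 2 were the highest. The Bmp15 to Kit ratio ranged from 7.80 to 17.2 in rRNA-rich and from 25.3 to 46.2 in rRNA-poor libraries.

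**Figure D3:**
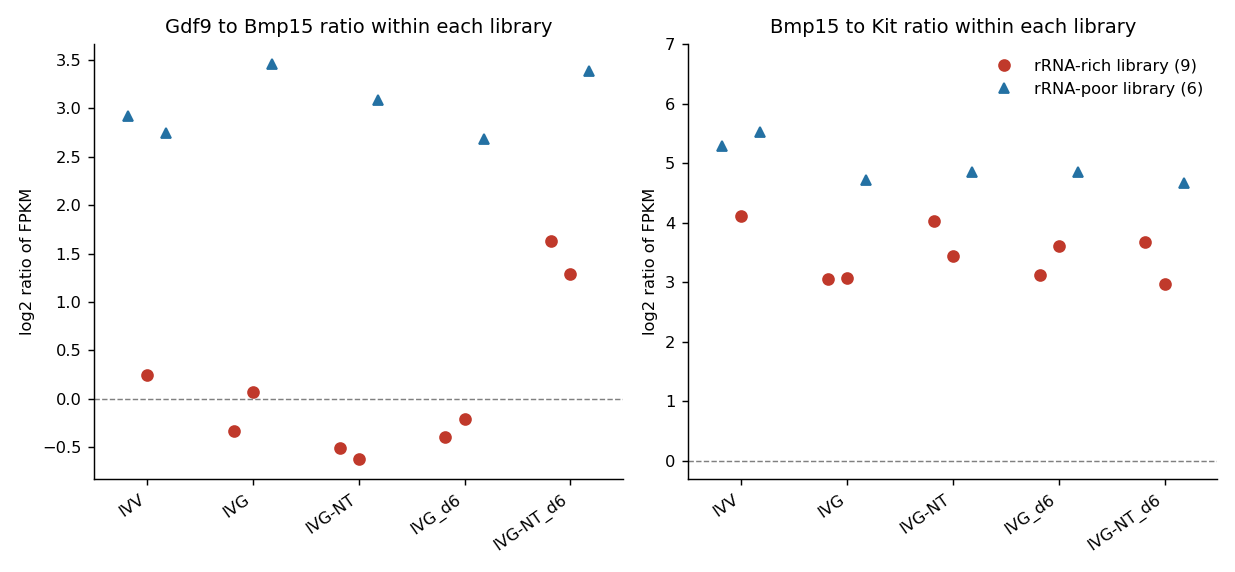
Log2 ratio of FPKM within each library for Gdf9 to Bmp15 (left) and Bmp15 to Kit (right), by group; red circles are rRNA-rich and blue triangles rRNA-poor libraries, and the dashed line is a ratio of 1. All triangles lie above all circles in both panels, and the 2 highest circles on the left are those of IVG-NT_d6.

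The first question was whether oocytes grown in vitro to day 10 carry the same levels as oocytes grown in vivo. Against IVV, 0 of 5 genes were called in IVG, where 2.76% of all genes were, and 0 of 5 in IVG-NT, where 3.29% were. Kit differed most, by 2.10 (SE 1.28, adjusted p = 1 by edgeR's test) in IVG and 1.61 (SE 1.26, adjusted p = 1) in IVG-NT, and Bmp15 by 0.80 (SE 0.86) and 0.94 (SE 0.87). For 0 of 5 did IVG or IVG-NT separate from IVV without overlap, against 11.9% and 11.6% of all genes. IVV held 2 rRNA-poor libraries and the cultured groups 1 each. Fitted with that kind as a term, the Kit difference was 0.84 (SE 0.32, adjusted p = 1 by edgeR's test) in IVG and 0.41 (SE 0.32, adjusted p = 1) in IVG-NT, and that of Bmp15 was -0.066 (SE 0.25) and 0.023 (SE 0.25). In this fit 0 of 5 were called in either, against 3.83% and 4.31% of genes.

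Within kinds of library, Kit was 2.56 times as high in the rRNA-rich IVG libraries as in IVV 3 and 1.25 times as high in IVG 3 as in the mean of IVV 2 and 4. In rRNA-rich libraries alone Kit was higher in IVG by 1.38 on the log2 scale. IVV was 1 library there, assumed to vary like the others, so the value has no replicate check on the side of IVV. In the fit with both media together Kit differed from IVV by 1.86 (SE 1.17), and 0 of 5 genes were called, where 5.40% of genes were. With labels exchanged within kinds, 30 assignments, the exact two-sided p was 0.033 for Fgf8 (0.69 higher in vitro on the log2 scale), 0.067 for Kit (0.60 higher) and 0.70 to 0.83 for the other 3. The smallest p possible was 0.033, and after Benjamini-Hochberg adjustment over 6 measures the values for Fgf8 and Kit were 0.20. Single libraries decided the calls of Kit in the fit of groups. Without IVV 3 it was called in IVG (3.89) and IVG-NT (3.38), and without IVG 3 in IVG (2.65). Without IVV 3 it was also called with both media together (3.64). These fits leave IVV all rRNA-poor or IVG all rRNA-rich, and the part of kind in them was not tested. The share of all genes called in them is not given. Over all settings it reached 10.6% in IVG, 11.3% in IVG-NT and 14.3% with both media together. At the other end Kit was at 1.52 in IVG without IVG 1, 1.03 in IVG-NT without IVG-NT 2 and 1.41 with both media together without IVV 4, with no call.

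The next question was the effect of NT-4 on day 10. Between IVG-NT and IVG 0 of 5 genes were called, where 1.24% of genes were, and the largest difference was that of Kit, -0.49 (SE 1.23, adjusted p = 1 by edgeR's test). Gdf9 differed by -0.37 (SE 0.49), Bmp6 by 0.19 (SE 0.70), Bmp15 by 0.14 (SE 0.86) and Fgf8 by 0.12 (SE 0.91). Bmp6 alone did not overlap in normalised CPM, from 109 to 133 in IVG-NT and from 104 to 108 in IVG, and in 1.66% of all genes IVG-NT was higher without overlap. Without the TMM factors it did overlap, from 26.8 to 31.1 FPKM in IVG-NT and from 24.5 to 34.4 in IVG. Same-numbered libraries of these groups deviated together, but they also share their kind, so pairing and kind cannot be told apart there. Gdf9 and Kit were lower with NT-4 in 3 of 3 such pairs, and the share of all genes that ran so was not counted. With the replicate number as a block Gdf9 differed by -0.34 (SE 0.26, adjusted p = 1 by edgeR's test) and Kit by -0.43 (SE 0.34, adjusted p = 1), and 144 of 19272 genes were called, 0 of the 5 among them. With library kind in the model the SE of Bmp15 was 0.24 and that of Gdf9 0.23, and 0 of 5 were called, against 2.03% of genes.

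On day 6 Bmp6, Bmp15 and Kit were lower with NT-4 in the means, and the call depended on how the kind of library was treated. In the fit of groups 0 of 5 genes were called between IVG-NT_d6 and IVG_d6, where 11.6% of genes were. Bmp6 differed by -1.48 (SE 0.72, adjusted p = 0.44 by edgeR's test), Bmp15 by -1.33 (SE 0.87, adjusted p = 0.55) and Kit by -1.28 (SE 1.25, adjusted p = 0.73). Bmp6 was lower in IVG-NT_d6 without overlap, as were 7.44% of all genes. Once library kind was a term all 3 were called, Bmp15 at -1.18 (SE 0.24, adjusted p = 0.26 by edgeR's test), Kit at -1.06 (SE 0.31, adjusted p = 0.26) and Bmp6 at -1.56 (SE 0.61, adjusted p = 0.27), and 15.8% of all genes were called. In rRNA-rich libraries alone Bmp15 differed by -1.47 with an adjusted p of 0.047 by edgeR's test, where 0.348% of genes had one under 0.05. Kit differed there by -1.39 (adjusted p = 0.10) and Bmp6 by -2.34 (adjusted p = 0.22), and 18.1% of genes were called. Gdf9 differed by 0.20 (SE 0.49) and Fgf8 by 0.16 (SE 0.91).

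The 2 rRNA-rich libraries of IVG-NT_d6 were the shallow ones, and this depth and the medium cannot be told apart within that kind. In the rRNA-poor pair, where IVG-NT_d6 3 held 50336973 counts and IVG_d6 3 held 55593251, Bmp15 was 0.579 times, Kit 0.661 times and Bmp6 0.639 times as high with NT-4, from 1 library each and so with no replicate check. Over libraries left out, the Bmp6 difference ran from -2.27, a call, without IVG-NT_d6 3 to -0.93, no call, without IVG-NT_d6 2. The share of all genes called in these fits is not given.

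The days of culture were compared next. Between IVG and IVG_d6 0 of 5 genes were called, where 2.90% of genes were. Bmp15 differed by -0.58 (SE 0.86) and the other 4 by between -0.29 and -0.09. Bmp6 was lower on day 10 without overlap in normalised CPM, as were 2.95% of all genes, and overlapped in FPKM, from 24.5 to 34.4 in IVG and from 27.6 to 39.7 in IVG_d6. Between IVG-NT and IVG-NT_d6 0 of 5 were called as well, against 12.7% of genes, with Bmp6 at 1.44 (SE 0.72, adjusted p = 0.41 by edgeR's test), Bmp15 at 0.89 (SE 0.87) and Gdf9 at -0.73 (SE 0.49). Bmp6 was higher on day 10 without overlap, as were 9.74% of all genes. In the model with library kind Bmp6 was called (1.53, SE 0.61, adjusted p = 0.25 by edgeR's test), where 16.9% of genes were, and Gdf9, at -0.82 (SE 0.23, adjusted p = 0.22), stayed within the fold that a call needs. Kit differed by 0.51 (SE 1.23) and by -0.15 with DESeq2's size factors. Bmp6 ran from 0.87, no call, without IVG-NT_d6 2 to 2.22, a call, without IVG-NT_d6 3, and the share of all genes called in these fits is not given.

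The effects of NT-4 on the 2 days were set against each other in an interaction term. Day 10 minus day 6, the difference was 1.67 for Bmp6 (SE 1.0, adjusted p = 0.88 by edgeR's test) and 1.47 for Bmp15 (SE 1.22, adjusted p = 0.97), and 0 of 5 genes were called, where 6.37% of genes were. Given library kind as a term, Bmp15 was called at 1.27 (SE 0.34, adjusted p = 0.52 by edgeR's test), against 8.96% of genes. Over both days the difference with NT-4 was -0.89 for Kit (SE 0.87), -0.65 for Bmp6 (SE 0.50) and -0.59 for Bmp15 (SE 0.61), with 0 of 5 called, where 6.18% of genes were. Without IVG-NT_d6 3, Bmp6 was called in the interaction (2.45) and over both days (-1.04), and without IVG-NT_d6 2 it was at 1.10 and -0.38, with no call. For these fits, too, the share of all genes called is not given. Over both media 0 of 5 were called between the days, where 10.4% of genes were, and Gdf9 differed by -0.45 (SE 0.34).

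Oocytes of day 6 were also set against IVV. IVG_d6 had 0 of 5 called, where 4.59% of genes were, with Kit at 2.39 (SE 1.29, adjusted p = 1 by edgeR's test) and Bmp15 at 1.38 (SE 0.88, adjusted p = 1). In the model with library kind Kit was called at 1.18 (SE 0.32, adjusted p = 0.82 by edgeR's test), where 5.79% of genes were. Within kinds of library, Kit was 3.11 times as high in rRNA-rich IVG_d6 as in IVV 3 and 1.80 times as high in IVG_d6 3 as in the mean of IVV 2 and 4. Without IVV 3 the fit of groups called Kit (4.17) and Bmp15 (2.21), and without IVG_d6 3 it called Kit (2.93). These fits leave IVV all rRNA-poor or IVG_d6 all rRNA-rich, and the part of kind in them was not tested. The share of all genes called in them is not given, and over all settings it reached 12.7%. Kit was 1.91 without IVG_d6 1 and Bmp15 was 0.96 without IVG_d6 2, with no call. IVG-NT_d6 had 0 of 5 called, against 10.4% of genes, and Bmp6 was lower than IVV without overlap (-1.28, SE 0.71, adjusted p = 0.51 by edgeR's test), as were 12.6% of all genes. This Bmp6 difference was called at -2.06 without IVG-NT_d6 3, which leaves the shallow libraries of that group, and was -0.75, with no call, without IVG-NT_d6 2. For day 6 with both media together, exchanging labels within kinds gave an exact two-sided p of 0.10 for Fgf8 (0.76 higher on day 6 on the log2 scale), 0.13 for Kit (0.73 higher) and Gdf9 (0.29 higher), 0.50 for Bmp6 and 1.0 for Bmp15, in a test added after the counts were seen. The comparisons with IVV share its 3 libraries.

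**Figure D4:**
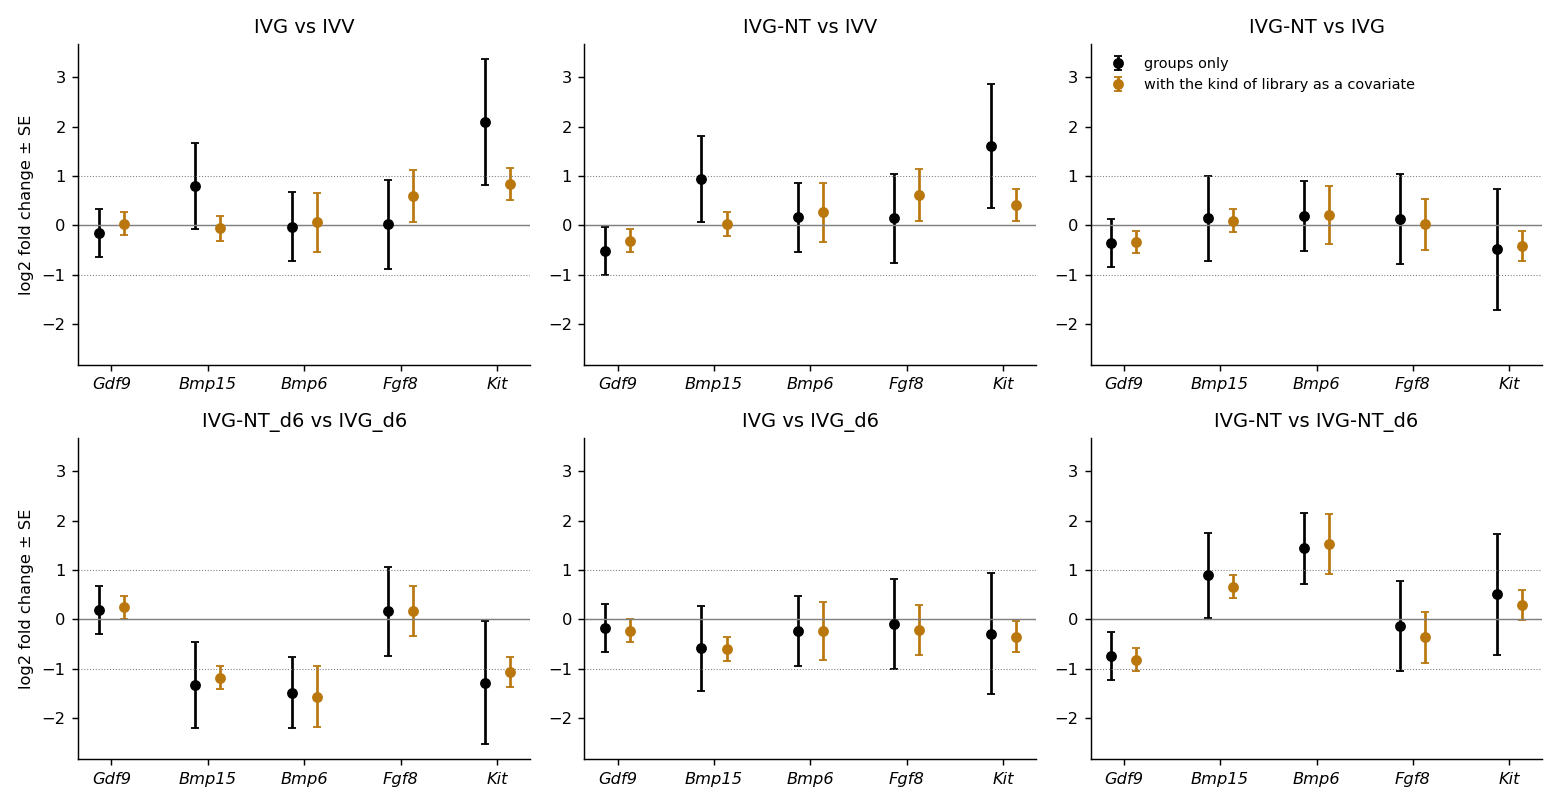
Log2 fold change with its SE for each gene in 6 comparisons, from the fit of groups (black) and from the fit with library kind as a term (orange); dotted lines mark -1 and 1. The orange errors are smaller for Bmp15 and Kit, whose differences from IVV shrink and whose differences between the media on day 6 stay below -1.

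In all 12 comparisons from the fit of groups 0 of 5 genes had an unadjusted P under 0.05 by edgeR's test, and 0 of 5 by DESeq2's Wald test. Over all genes edgeR gave an adjusted p under 0.05 to 0 of 21009 genes in each of them, an unadjusted P under 0.05 to between 261 and 2661 genes, and DESeq2 an adjusted p under 0.05 to between 51 and 715. Exact two-sided permutation tests of single values numbered 48, for the normalised log2 CPM of the 5 genes and the Gdf9 to Bmp15 ratio in 8 comparisons of 3 libraries with 3. Of these exact tests 5 reached p = 0.1, the smallest possible, all of them for Bmp6, and the smallest adjusted value was 0.74.

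Other genes of the pathways of the 5 were read from lists. Of 18 ligands on the list, 10 passed the filter on low counts, led by Bmp5 with a mean of 61.1 FPKM, Tgfb2 with 49.3, the inhibin subunit Inha with 28.2 and Tgfb3 with 7.40, all below the Gdf9 and Bmp15 means of every group. Against IVV, 0 of 10 were called in IVG or IVG-NT. On day 6 the granulosa cell genes Inhba and Inhbb stood at most at 0.109 and 0.182 FPKM in either medium, against 1.86 to 4.69 and 5.21 to 9.63 FPKM in IVV. Both were lower on day 6 than in IVV and than on day 10, in both media, by the call of edgeR's test. Of all genes 3.61% were called lower in IVG_d6 and 5.43% in IVG-NT_d6 than in IVV. On day 10, 1.69% were called higher than on day 6 without NT-4 and 5.45% with it. No gene had an adjusted p under 0.05 in these comparisons. Inhba and Inhbb stand on the list of granulosa cell markers too, whose summed level was lower on day 6, and the part of granulosa cell RNA in them was not tested.

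Receptors were led by Bmpr1b, which binds BMPs, at 16.7 FPKM, the activin receptor Acvr1b at 13.8, Bmpr2, which GDF9 and BMP15 share, at 7.99 and Bmpr1a at 7.74. Of 12 tested, 0 were called in IVG or IVG-NT against IVV or between these media, and 0 between the media on day 6. Bmpr1b was higher in IVG-NT than in IVG-NT_d6 (1.40, SE 0.63, adjusted p = 0.38 by edgeR's test). In rRNA-rich libraries 5 of 12 were higher and 0 lower, where 12.3% of all genes were higher and 22.8% lower, with Bmpr2 at 2.38 (SE 0.30) and Acvr1b at 1.43 (SE 0.34), and the median of the 12 was 1.63, against -0.54 over all genes.

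The SMAD proteins, which carry these signals, and the secreted antagonists made a list of 18 genes, 16 of them tested, led by Smad3 at 51.1 FPKM, Smad4 at 19.5, Smurf2 at 15.2 and the BMP antagonist Grem1 at 14.2. Between the media on day 6, 5 of 16 were lower with NT-4 and 0 higher, where 4.83% of all genes were lower and 6.74% higher. Among them were Smurf2 (-1.89, SE 0.67, adjusted p = 0.38 by edgeR's test) and Smad2 (-1.81, SE 0.78, adjusted p = 0.40). Smad2 stood between 9.55 and 15 FPKM in IVG_d6 and between 1.92 and 5.07 in IVG-NT_d6, without overlap. In normalised CPM 7.44% of all genes were lower without overlap in this comparison. The Smad2 counts in IVG-NT_d6 1, 2 and 3 were 265, 120 and 1542, the first 2 in the shallow libraries, and the part of depth was not tested. Fst and Grem1, which encode secreted antagonists, were also among the 5 lower genes. Fst had 20, 186 and 0 counts in IVG_d6 and 0 in all 3 IVG-NT_d6 libraries, and Grem1 had 0, 0 and 654 counts in IVG_d6 and 0, 0 and 16 in IVG-NT_d6. Both genes overlapped between the media, and the Grem1 value rested on library 3. The median of the list was -1.09, against -0.27 over all genes. Furin, a convertase that cuts the precursors of such ligands, stood at 16.7 FPKM and led the 4 convertases, of which 0 were called in any of the 12 comparisons and 1, Furin (3.22, SE 0.38), between the kinds of library.

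Around Fgf8 the list of FGF ligands and receptors was low. Fgf1, Fgfr2, Fgfr1 and Fgf18 had means of 4.97, 3.46, 2.54 and 2.49 FPKM, and 8 of 12 genes were tested, with 0 called in the 12 comparisons of groups. The feedback genes that FGF signals switch on were led by Spry4, at 101 FPKM, Spry1 at 14.4, Il17rd at 9.57 and Spred2 at 5.32, and Spry3 was not analysed here. Spry2 was called lower in IVG and IVG-NT, at 0 to 4 counts in IVG and 0 in IVG-NT against 26 to 54 in IVV. In rRNA-rich libraries 4 of 10 were higher and 0 lower (12.3% and 22.8% of all genes), Il17rd by 3.34 (SE 0.43) and Spry4 by 1.31 (SE 0.19).

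The KIT ligand and the genes that carry the signal of KIT made a list of 20, all of them tested. In IVG against IVV 3 were higher and 0 lower, where 0.842% of all genes were higher and 1.91% lower. They were the adaptor Shc1 (2.38, SE 1.12), the adaptor Gab2 (1.95, SE 0.88) and the kinase Pdpk1 (1.98, SE 0.80), each with an adjusted p of 1 by edgeR's test. Shc1 stood between 2.27 and 9.09 FPKM in IVG and between 0.82 and 1.68 in IVV. Pdpk1 stood between 5.16 and 22.5 FPKM in IVG and overlapped IVV, at 3.72 to 5.28. Gab2 stood at 31.2 and 38.0 FPKM in the rRNA-rich IVG 1 and 2 and at 8.36 in the rRNA-poor IVG 3, against 10.4 in the rRNA-rich IVV 3 and 4.47 and 5.03 in the rRNA-poor IVV 2 and 4. The part of the kind of library in these 3 differences was not tested. The most abundant of the 20 was Foxo3 at 93.9 FPKM, followed by Gab2 at 15.1, Ptpn11 at 13.7 and Sh2b3 at 12.7. Between the kinds of library 8 of 20 were higher in rRNA-rich libraries and 0 lower (12.3% and 22.8% of all genes), Foxo3 by 2.89 (SE 0.25). The KIT ligand Kitl, a product of granulosa cells, had at most 14.6 FPKM in any library. On day 6 with NT-4, 1 was higher and 3 were lower, where 6.74% of all genes were higher and 4.83% lower. The higher one, Sh2b3, ran from 0 to 144 FPKM in IVG-NT_d6 and from 1.25 to 4.22 in IVG_d6. Its counts in IVG-NT_d6 1, 2 and 3 were 0, 4941 and 1101, the first 2 in the shallow libraries. Among the lower ones was Pdpk1 at -2.30 (SE 0.81, adjusted p = 0.38 by edgeR's test).

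Of 7 transcription factors of the oocyte, Nobox, which Gdf9 and Bmp15 are known to depend on, led with 296 FPKM, before Lhx8 at 77.9, Figla at 55.7 and Nr6a1 at 11.5. None of the 7 was called in IVG or IVG-NT against IVV or between the media on either day. In IVG_d6 against IVV 1 was higher, where 0.976% of all genes were, Nobox (1.27, SE 0.58, adjusted p = 1 by edgeR's test), between 292 and 550 FPKM in IVG_d6 and between 142 and 192 in IVV. Genes that oocyte factors switch on in cumulus cells made a list of 10, 8 of them tested, that summed to between 14.3 and 70.5 FPKM. In IVG against IVV 1 was higher (Has2) and 1 lower (Slc38a3), where 0.842% and 1.91% of all genes were. Has2 had 0, 0 and 6 counts in IVV and 103, 22 and 95 in IVG. Slc38a3 had 58, 17 and 63 counts in IVV and 0 in every IVG library. In IVG-NT against IVV 0 were higher and 1 lower, where 0.624% and 2.67% of all genes were.

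The genes most like each of the 5 over the 15 libraries were taken by Pearson's r of log2 CPM, a description, since the libraries share their kind and depth. Gdf9 was most like Pdcd7, 9130204K15Rik and Arl4a, with r of 0.92 to 0.93. Bmp15 was most like Prep, Atp13a3 and Foxo3 (0.98 each), and Kit was most like Pls1, Prr14l and Dip2c (0.98 to 0.99). Centred within each kind of library, r was 0.80 to 0.83 for the neighbours of Bmp15 and 0.72 to 0.90 for those of Kit. Bmp6 was most like Cpsf2, Afg3l2 and Ube2z (0.99 each) and Fgf8 most like Atp6v1e1, Sgf29 and Psma2 (0.95 to 0.98). Between members, Bmp15 and Kit had r of 0.97, and 0.70 within kinds. Gdf9 and Bmp15 had r of -0.73, and -0.31 within kinds.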

How the data were processed

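RNA of 6 oocytes a library was amplified by SMART-Seq2 and sequenced paired-end. The authors dropped poor reads, mapped to mm10 (HISAT2), quantified transcripts (StringTie) and deposited raw counts for every gene identifier. The annotation, counting method and strand setting are not given in the sources used here. Of 55401 identifiers, 99.5% had a GENCODE vM21 symbol, 36497 had a count and 21009 passed filterByExpr (minimum count 10). Counts were scaled by TMM and tested with edgeR 4.0.16 (quasi-likelihood, 1 fit of group means over 15 libraries) in R 4.3.3. A gene was called at a log2 fold change beyond 1 and P under 0.05, the threshold of the study, and adjusted p-values (Benjamini-Hochberg) cover all genes tested. Log2 CPM used a prior count of 2, and FPKM the union exon length and all counts. DESeq2 1.42.0 was an alternative. The fit was tested on simulated data. Groups came from sample titles. Named genes were the 5 members, their 3 nearest by r, and up to 4 genes a list by mean FPKM or, in a comparison, by P among those called. The members and lists were chosen with earlier results of these data known. The labels number every cultured group 1, 2 and 3. Same-numbered libraries deviated together between IVG and IVG-NT (r 0.37 to 0.73) and between IVG and IVG_d6 (0.15 to 0.54). Between IVG_d6 and IVG-NT_d6 r ran from 0.083 to 0.33. Same-numbered cultured libraries are also of the same kind, so r cannot tell a shared experiment from a shared kind. Library totals of 5954262 to 55593251 counts limit precision most in IVG-NT_d6 1 and 2. The values of 1 list gene are not reported here.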

Additional observations from a re-analysis of the deposited data

Results flagged for a closer look

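In the fit with library kind as a term, Bmp15 was called for the difference of the NT-4 effects between the days, where 8.96% of all genes were. The value was 1.27 on the log2 scale (day 10 minus day 6, SE 0.34, adjusted p = 0.52 by edgeR's test). In the fit of groups it was 1.47 (SE 1.22, adjusted p = 0.97 by edgeR's test), with no call. The rRNA-rich libraries of IVG-NT_d6 are the shallow ones, and the part of their depth was not tested.

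In normalised CPM Bmp6 was higher with NT-4 in all libraries of day 10 and lower in all libraries of day 6. The day 10 part rests on the TMM factors, since in FPKM the groups overlapped, from 26.8 to 31.1 in IVG-NT and from 24.5 to 34.4 in IVG. The difference of these effects was 2.26 from the means of log2 CPM, and seen the other way, as the change from day 6 to day 10 with NT-4 minus the change without it, it was the same 2.26. In the fit of groups the term was 1.67 (SE 1.0, adjusted p = 0.88 by edgeR's test), so the difference did not pass. The counts of Bmp6 in IVG-NT_d6 were 250, 40 and 4968, and the part of the depth of the first 2 of these libraries was not tested.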

How the results depend on the processing

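Called members numbered 0 in each comparison of groups, and the following settings gave other counts. Where no share of all genes in that setting stands beside a count, the count is not read as a result about the members. Without a filter on low counts 1 member was called in IVG against IVV, 1 between the media on day 6, 2 in IVG_d6 against IVV and 1 in day 10 against IVV. In the main fit, with the filter, 2.76%, 11.6%, 4.59% and 5.40% of all genes were called in these comparisons, in that order. With library kind as a covariate 3 were called between the media on day 6, where 15.8% of all genes were. That setting called 1 in IVG-NT against IVG-NT_d6 (16.9%), 1 in IVG_d6 against IVV (5.79%) and 1 for the NT-4 difference between days (8.96%). In rRNA-rich libraries alone 3 were called between the media on day 6, where 18.1% of all genes were. In IVG-NT against IVG-NT_d6 2 were (19.5%), and for the difference of NT-4 effects 1 was (11.8%). IVV was 1 library there, assumed to vary like the others, so calls against it are not counted here. DESeq2's size factors called 1 in IVG-NT against IVG-NT_d6, Gdf9, and moved the median of all genes by -0.36 to 0.27. Leaving out 1 library gave 0 to 1 called members, except 0 to 2 in IVG_d6 against IVV and 0 between IVG-NT and IVG, IVG and IVG_d6 and the days over both media, and 3 in each case between the kinds. The cause was not tested.

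The replicate block gave 3 called members between the media on day 6. It gave 1 in IVG-NT against IVG-NT_d6 and 1 for the difference of NT-4 effects. The share of all genes called with the block is not given for these comparisons. Between IVG-NT and IVG and between IVG and IVG_d6 the block changed no call. The labels number every cultured group alike, and same-numbered cultured libraries share their kind, so the block also takes up the kind. The deposited IVV tables are numbered 1, 2 and 3 and their titles, used here, 2, 3 and 4, so which libraries a block would match is in doubt. By the titles, the block sets the rRNA-rich IVV 3 beside rRNA-poor libraries and the rRNA-poor IVV 2 beside rRNA-rich ones. Values from the block against IVV therefore mix kind with culture, and the part of kind in them was not tested. Against IVV, whose numbers do not pair with the others, the block turned the log2 fold change of Bmp15 to -0.88 in IVG, -0.77 in IVG-NT, -0.26 in IVG_d6 and -0.83 in day 10, and that of Kit to -1.15, -1.57, -0.81 and -1.36, and to -1.90 in IVG-NT_d6.

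Bmp15 also turned to -0.066 in IVG and -0.021 in day 10 with the kind as a covariate, and in rRNA-poor libraries alone to -0.34 in IVG, -0.43 in IVG-NT, -0.38 in day 10 and -0.10 in IVG-NT against IVG-NT_d6. Kit turned in IVG-NT against IVG-NT_d6 to -0.15 with DESeq2's size factors and with its Wald test, to -0.30 in rRNA-poor libraries alone and, over libraries left out, ranged from -0.072 to 1.13. Without the shallow IVG-NT_d6 libraries, a setting chosen after seeing the data, Kit was at -1.51 in IVG-NT_d6 against IVV. The Gdf9 to Bmp15 log2 ratio, with 1 library left out, ranged from 1.5 to 2.83 in IVV, from -0.13 to 1.76 in IVG, from -0.56 to 1.29 in IVG-NT, from -0.30 to 1.23 in IVG_d6 and from 1.46 to 2.51 in IVG-NT_d6.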
